A study of Mus musculus with 10 samples.

Results

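The genes of the lipid droplet coat and of its first lipolytic step were examined in livers of *db/db* mice. They comprise 10 genes, chosen by name: the perilipins *Plin2*, *Plin4* and *Plin5*, the CIDE genes *Cidea*, *Cideb* and *Cidec*, the fat storage-inducing transmembrane genes *Fitm1* and *Fitm2*, the adipose triglyceride lipase gene *Pnpla2* and its inhibitor *G0s2*. All 10 were among the 15126 genes of the deposited table and among the 11041 that averaged 1 CPM or more (CPM, reads per 1000000 reads on genes). The data described are RNA-seq libraries of 5 livers from *db/db* mice that received adeno-associated virus 8 encoding eGFP (AAV8-Control). The mice carried the leptin receptor mutation *db/db*, an obese and diabetic model. They were 10 weeks old, 5 weeks after the virus was given, so that no liver was lean or free of virus. The promoter of the vector is not given in the sources used here. Some sample labels name primary hepatocytes and adenovirus, whereas the tissue label, the genotype label and the study's text name liver and AAV8. The other 5 libraries of the series were not used here, so the values describe 1 group and no comparison between groups was made.

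Cytosolic lipid droplets store triglyceride under a phospholipid monolayer that is coated with proteins. Perilipins on that surface limit the access of lipases, CIDE proteins at contact sites let small droplets pass lipid into larger ones, and the FITM proteins of the endoplasmic reticulum partition triglyceride into nascent droplets. The lipase encoded by *Pnpla2* takes the first fatty acid from triglyceride, with the protein of *Abhd5* as its activator and that of *G0s2* as its inhibitor. In liver, *Plin2* is the main coat gene of hepatocytes, and *Cidea* and *Cidec* are known to be low in lean liver and high in fatty liver. Several of these genes are known targets of the nuclear receptors PPARα and PPARγ.

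Because several members share these regulators, promoters are shown for the member with the highest level (*Plin2*), a member that varied widely between livers (*Cidec*, which has 2 starts) and the one that varied least (*Pnpla2*). Each window runs from 250 bases before to 50 bases after a RefSeq transcript start and is read 5′ to 3′ on the gene's strand. Of the 10 members, 9 had such a window, in 11 windows in all. Capitals mark a direct repeat of the kind bound by PPAR and RXR dimers, spelled AGGNCANAGGTCA and allowed up to 2 mismatches in its 11 fixed letters on either strand, and the E-box CACGTG, for which no mismatch was allowed. The 2 motifs did not overlap each other in these windows.
Plin2, chr4:86670010-86670309, reverse strand, GRCm38.p6: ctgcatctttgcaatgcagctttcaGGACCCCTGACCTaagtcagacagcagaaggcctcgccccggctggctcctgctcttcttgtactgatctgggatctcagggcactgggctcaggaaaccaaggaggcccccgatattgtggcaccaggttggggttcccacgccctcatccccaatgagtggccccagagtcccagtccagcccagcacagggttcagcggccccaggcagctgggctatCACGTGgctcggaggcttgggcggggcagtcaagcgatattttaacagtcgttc
Cidec at its downstream start, chr6:113434715-113435014, reverse strand, GRCm38.p6: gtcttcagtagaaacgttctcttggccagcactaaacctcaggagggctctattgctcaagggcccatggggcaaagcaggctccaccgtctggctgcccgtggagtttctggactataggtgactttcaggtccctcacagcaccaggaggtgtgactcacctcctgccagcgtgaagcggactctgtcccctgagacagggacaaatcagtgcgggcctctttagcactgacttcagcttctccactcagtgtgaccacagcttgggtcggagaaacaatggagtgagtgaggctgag
Cidec at its upstream start, chr6:113435711-113436010, reverse strand, GRCm38.p6: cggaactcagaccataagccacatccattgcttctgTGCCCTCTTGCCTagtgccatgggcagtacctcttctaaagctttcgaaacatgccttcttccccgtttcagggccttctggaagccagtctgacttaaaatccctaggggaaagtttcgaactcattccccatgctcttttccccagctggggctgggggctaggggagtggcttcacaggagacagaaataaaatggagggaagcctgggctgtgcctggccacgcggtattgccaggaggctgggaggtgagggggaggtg
Pnpla2, chr7:141454938-141455237, forward strand, GRCm38.p6: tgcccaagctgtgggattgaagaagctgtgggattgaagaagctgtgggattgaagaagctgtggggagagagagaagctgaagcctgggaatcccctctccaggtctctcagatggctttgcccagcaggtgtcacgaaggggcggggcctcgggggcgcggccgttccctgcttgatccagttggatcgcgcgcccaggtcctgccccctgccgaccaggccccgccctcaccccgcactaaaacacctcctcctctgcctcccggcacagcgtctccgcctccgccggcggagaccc

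The direct repeat was found in 5 of the 11 windows, whereas 11.6% of all 32817 RefSeq windows of this length held it. Its first base lay at -225 in *Plin2*, at -214 from the upstream start of *Cidec* and at -231 in *Fitm1*. The other matches lay at 7 in *Plin5* and at 8 in *G0s2*, just after the start. Each of the 5 matches had 2 mismatches. The E-box was found in 1 of the 11 windows, at -4 in *Plin2*, and in 7.15% of all windows. Neither motif was in the window of *Pnpla2*. Matches of letters are a description of these windows and do not show binding.

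The libraries held 19499795 to 35498596 reads on genes, so that 1 read was worth 0.0282 to 0.0513 CPM, and mitochondrial genes took 9.92% to 11.9% of the reads. The members were covered by 233 to 33263 reads per library. Hepatocyte markers summed to between 91633 and 126225 CPM, with albumin as the largest part. The 2 skeletal muscle markers in the table were near 0, with *Acta1* at no more than 3 reads in a library. These are whole livers, in which fewer cells of a type and less RNA per cell cannot be told apart.

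The first question was how much of each gene these fatty livers expressed, per kilobase of exon. *Plin2* was the highest of the members at 206 ± 42.7 CPM per kb (SD, n = 5), above 98.1% of the 11039 genes that averaged 1 CPM or more and had an exon length. Over all exon bases, *G0s2* followed at 140.3 ± 21.3 and *Fitm1* at 119 ± 17.6 CPM per kb. *Cideb* was at 44.6 ± 3.23, *Cidea* at 42.3 ± 26.1, *Pnpla2* at 33.0 ± 0.799, *Cidec* at 29.8 ± 13.0, *Plin5* at 25.0 ± 5.44 and *Fitm2* at 15.8 ± 2.02 CPM per kb. *Plin4* was the lowest at 2.49 ± 0.877 CPM per kb, above 42.9% of genes, while each of the other members lay above at least 83.0%.

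Between neighbours in this order, the ranges over the 5 livers did not overlap for *Plin2* over *G0s2*, *Fitm1* over *Cideb* and *Fitm2* over *Plin4*. *Plin2* and *G0s2* came close, as the lowest liver for *Plin2* was at 164.1 and the highest for *G0s2* at 164.0 CPM per kb. Of all 45 pairs of members, the ranges of 11 overlapped. These were *G0s2* with *Fitm1*, *Plin5* with *Fitm2*, and 9 pairs that include *Cidea* or *Cidec*, whose ranges were wide. Without *Cidea* and *Cidec*, *Cideb* lay above *Pnpla2* and *Pnpla2* above *Plin5* with no overlap. *Plin5* lay above *Fitm2* in each of the 5 livers, although their ranges overlapped. The place of *Cideb* depends on the exon length used. Its CPM divided by only the 352 exon bases shared with no other gene would give 189 ± 13.7 CPM per kb (SD, n = 5). This assumes that all its counted reads fell on those bases, which were not counted apart. Such a level would lie above *Fitm1*, at 134 ± 19.8 with the same assumption. Its lowest liver would then be at 172 CPM per kb, above the highest liver for *G0s2* and within the range of *Plin2*. The place of *Cideb* is therefore not settled. *Cidea* lay above *Pnpla2* in 2 of 5 livers only, though its mean was higher.

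**Figure D1:**
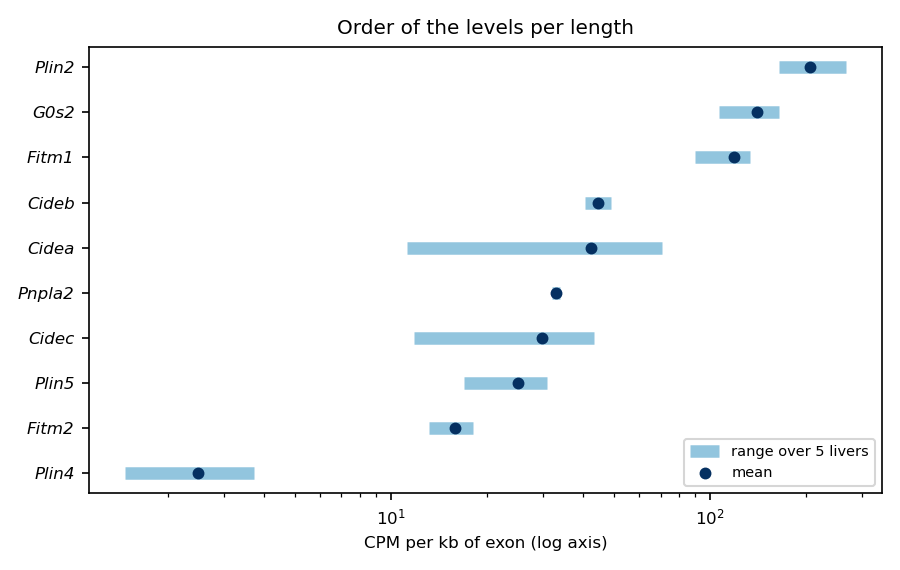
Level of each member in CPM per kb of exon on a log axis, with the mean of the 5 AAV8-Control livers (points) and the range over them (bars). *Plin2*, *G0s2* and *Fitm1* lie at 119 or more, *Plin4* lies apart at 2.49, and the bars of *Cidea* and *Cidec* span those of several neighbours.

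*Plin2*, at chr4:86648386-86670060 on the reverse strand, encodes the perilipin that coats hepatocyte droplets. It was at 576, 770.4, 937, 582 and 748 CPM in replicates 1 to 5, a mean of 723 ± 150 CPM (SD, n = 5). Replicates 1 and 4 were low and close to each other, and replicate 3 was the highest.

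*Plin4* and *Plin5* lie next to each other on the reverse strand of chromosome 17, at chr17:56100591-56109803 and chr17:56111601-56117596. *Plin4* encodes a perilipin best known from adipocytes and muscle. It was at 13.0, 17.2, 21.5, 8.49 and 11.7 CPM, a mean of 14.4 ± 5.07 CPM (SD, n = 5). *Plin5* encodes a perilipin of oxidative tissues that links droplets to mitochondria. It was at 64.6, 55.1, 58.9, 35.3 and 47.4 CPM, a mean of 52.2 ± 11.4 CPM (SD, n = 5). Replicate 4 was the lowest liver for both genes, while replicate 3 was the highest for *Plin4* and replicate 1 for *Plin5*.

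*Cidec*, at chr6:113424634-113435760 on the reverse strand, encodes the protein that promotes the growth of large droplets. It was at 39.5, 62.4, 80.6, 21.9 and 72.3 CPM in replicates 1 to 5, a mean of 55.3 ± 24.2 CPM (SD, n = 5). The highest liver was 3.68 times the lowest. *Cidea*, at chr18:67343604-67367785 on the forward strand, encodes a CIDE protein typical of brown fat that also appears in fatty liver. It was at 31.6, 78.8, 36.7, 12.5 and 76.03 CPM, a mean of 47.1 ± 29.1 CPM (SD, n = 5), with the highest liver at 6.30 times the lowest. For *Cidea*, replicates 2 and 5 stood above the others, and replicate 4 was the lowest for both *Cidea* and *Cidec*.

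*Cideb*, the CIDE gene of normal hepatocytes, whose protein takes part in the lipidation of very-low-density lipoprotein, lies at chr14:55754050-55758458 on the reverse strand. It was at 68.0, 72.7, 60.5, 62.8 and 67.9 CPM, a mean of 66.4 ± 4.81 CPM (SD, n = 5), and its highest liver was 1.20 times the lowest. This level is uncertain, because 76.3% of its exon bases in GENCODE M21 overlap exons of *Nop9* on the opposite strand, and the library protocol describes no step that marks strand. Reads on shared bases are ambiguous when counted without strand and are then left out, so the level of 44.6 CPM per kb over all exon bases may be too low.

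Because *Cidea*, *Cidec*, *Plin4* and *G0s2* are also adipocyte genes, 6 adipocyte markers were read beside them. The markers summed to 15.7, 11.3, 6.25, 2.37 and 3.67 CPM in replicates 1 to 5, mostly from *Cfd* and *Retn*, the genes of adipsin and resistin. The defining markers were close to 0, with *Adipoq* at no more than 1.23 CPM, *Plin1* at no more than 0.578 CPM and *Lep* at no more than 2 reads in any library. Replicate 4 had the lowest sum and the lowest *Cidec* and *Cidea*. Replicate 1, with the highest sum, had the second lowest level of both genes, and replicate 5, with the second lowest sum, had the second highest level of both. Stellate cell markers summed to between 227 and 307 CPM, Kupffer cell markers to between 124 and 251.5 CPM, sinusoidal endothelial markers to between 92.5 and 181 CPM and cholangiocyte markers to between 33.5 and 54.0 CPM. Replicate 4 was the lowest liver for the stellate and the endothelial sums, but not for the Kupffer or cholangiocyte sums, and it had the highest hepatocyte sum. Its stellate sum of 227 CPM was close to the 235 CPM of replicate 5 and the 236 CPM of replicates 1 and 3. The part of other cell types in the members' levels was not tested.

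*Fitm1*, at chr14:55575617-55576954 on the forward strand, encodes the FITM protein best known from skeletal and heart muscle. It was at 129, 114, 118, 87.0 and 128 CPM, a mean of 115 ± 17.1 CPM (SD, n = 5), with replicate 4 below the other livers. Of its exon bases, 11.2% overlap the antisense gene *Gm15932*, and reads on those bases may likewise have been left out. *Fitm2*, at chr2:163466379-163472629 on the reverse strand, encodes the FITM protein that is expressed in most tissues. It was at 70.1, 58.7, 71.5, 52.3 and 61.3 CPM, a mean of 62.8 ± 8.03 CPM (SD, n = 5), again with replicate 4 as the lowest. Per kilobase, *Fitm1* was the higher FITM gene in all 5 livers, with no overlap between their ranges.

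**Figure D2:**
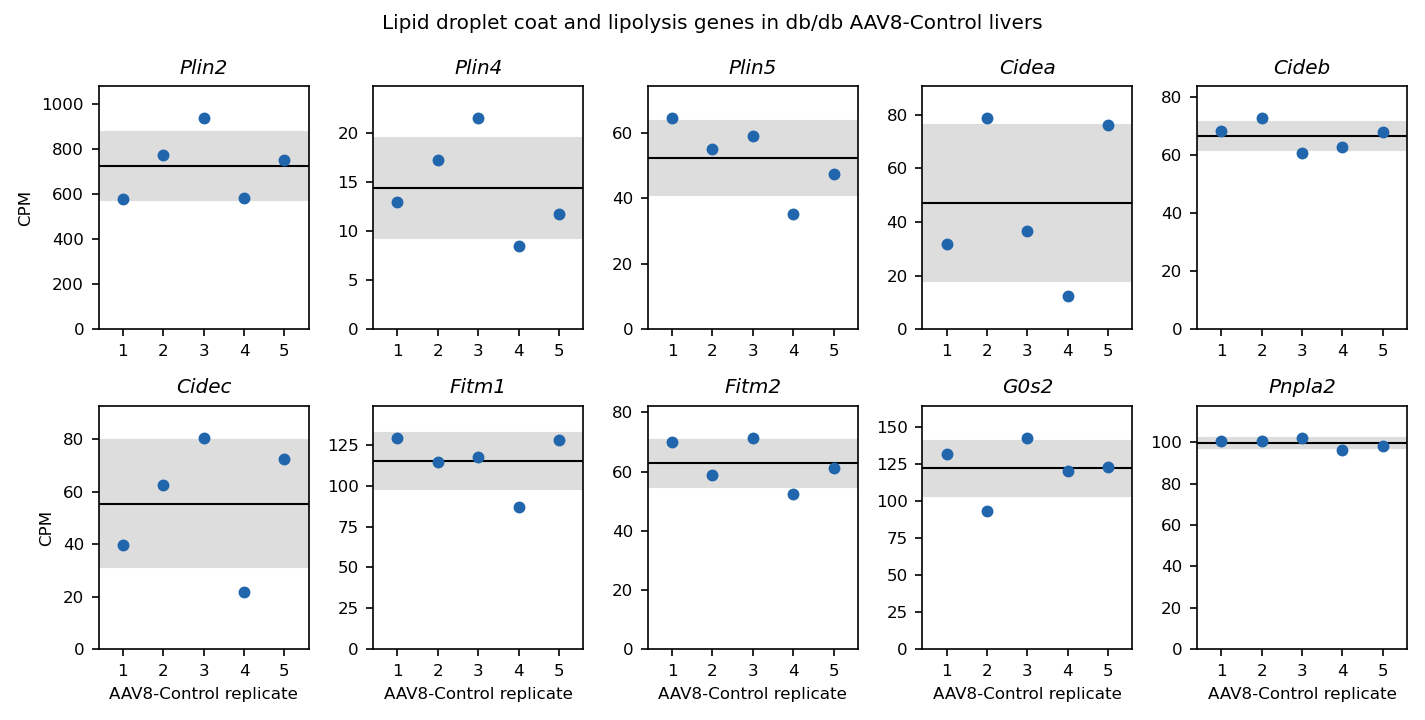
CPM of each of the 10 members in AAV8-Control replicates 1 to 5 (points), with the mean (line) and 1 SD to either side (grey band, n = 5). *Pnpla2* and *Cideb* are nearly level across the livers, while *Cidea* and *Cidec* range over 6.30 and 3.68 times.

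*Pnpla2*, at chr7:141455198-141460743 on the forward strand, was at 100.9, 100.6, 102, 96.3 and 98.2 CPM, a mean of 99.7 ± 2.41 CPM (SD, n = 5). The highest liver was only 1.06 times the lowest. *G0s2*, at chr1:193272161-193273217 on the reverse strand, was at 132, 93.0, 143, 119.96 and 123 CPM, a mean of 122 ± 18.6 CPM (SD, n = 5). Replicate 2 was the lowest liver for *G0s2*, whereas most other members were lowest in replicate 4.

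The level of the inhibitor was also read against that of its lipase within each library. The log2 ratio of *G0s2* to *Pnpla2*, taken on CPM + 1 and not adjusted for length, was 0.38, -0.11, 0.48, 0.31 and 0.32 in replicates 1 to 5, a mean of 0.28 ± 0.23 (SD, n = 5). Replicate 2 had the lowest ratio. Per kilobase of exon, *G0s2* lay above *Pnpla2* in all 5 livers, by 3.20 to 4.84 times. *Abhd5*, the gene of the activator of the lipase, was at 33.3 ± 4.798 CPM (SD, n = 5), which is 5.599 CPM per kb beside 33.0 for *Pnpla2*; it was named after its value was seen.

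The members differed widely in how much they varied among these livers. The SD on log2(CPM + 1) was 1.05 for *Cidea*, 0.76 for *Cidec*, 0.48 for *Plin4*, 0.33 for *Plin5* and 0.30 for *Plin2*. It was 0.23 for *G0s2* and *Fitm1*, 0.18 for *Fitm2*, 0.10 for *Cideb* and 0.035 for *Pnpla2*. The median over the 6937 genes that averaged 10 CPM or more was 0.12, and 95% of those genes lay under 0.32. By this measure 4 of the 10 members, *Cidea*, *Cidec*, *Plin4* and *Plin5*, were among the most variable 5% of genes. With the threshold recomputed each time, *Cidea*, *Cidec* and *Plin4* stayed in that 5% under every alternative scaling, pseudocount and left-out liver tried. *Plin5* lay close to the threshold and was under it with TMM scaling (0.306 against 0.309), with DESeq2 size factors (0.306 against 0.3097) and without replicate 4 (0.18 against 0.29), and in these 3 cases *Plin2* was above it. At the other end, 1.701% of genes had a smaller SD than *Pnpla2*. Its CV between livers was 2.42%, and counting error alone gives 1.66% to 2.25% at its reads per library, close to that whole spread.

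For some members the spread depended on a single liver. Replicate 4 had the lowest level for 7 of the 10 members, while it was the lowest liver for 32.6% of all genes that averaged 10 CPM or more. Replicate 3 had the highest level for 6 members, and for 15.7% of all such genes. Both counts of members include *Pnpla2*, whose highest liver was only 1.06 times its lowest. The counts are on CPM, were not repeated with TMM or DESeq2 scaling and may change with it. Without replicate 4 the SD was 0.68 for *Cidea*, 0.44 for *Cidec*, 0.18 for *Plin5* and 0.088 for *Fitm1*. It was 0.29 for *Plin2* and 0.37 for *Plin4*, and higher than with all 5 livers for *Cideb* (0.11) and *G0s2* (0.27). Without replicate 2 that of *G0s2* was 0.11. With 5 livers, correlations between members were not computed.

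**Figure D3:**
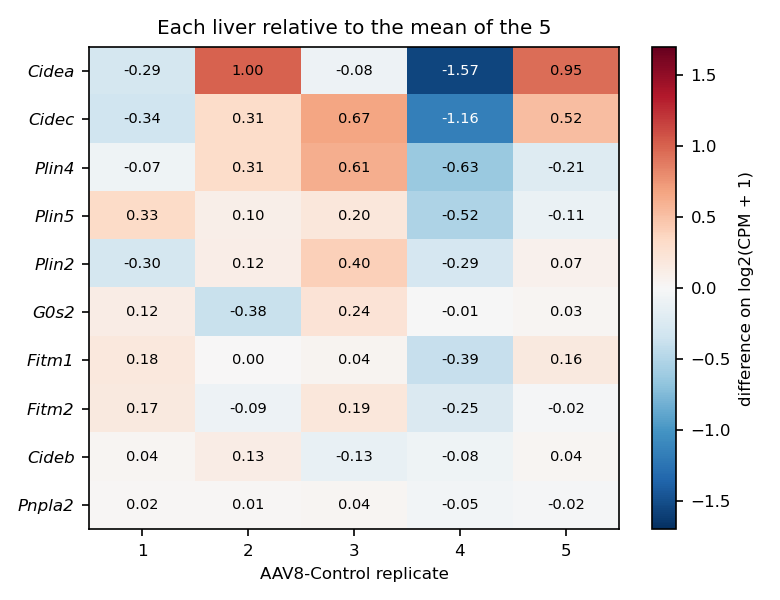
Difference of each liver from the mean of the 5 AAV8-Control livers on log2(CPM + 1), members in rows ordered by their SD and replicates in columns, with blue for lower and red for higher. Replicate 4 is the lowest for 7 of the 10 members, most of all for *Cidea* and *Cidec*, and the row of *Pnpla2* is nearly white.

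Of 28 other lipid droplet genes, 27 averaged 1 CPM or more, with a median level of 7.88 CPM per kb, and that of the 10 members was 37.6 CPM per kb. The genes with the highest CPM were *Dgat2*, the last enzyme of triglyceride synthesis, at 713 ± 100.2 CPM, *Hsd17b13*, a droplet-bound dehydrogenase of hepatocytes, at 469 ± 38.9 CPM, and its relative *Hsd17b11* at 172 ± 5.03 CPM (SD, n = 5 each). Per kilobase, *Dgat2* at 231 and *Hsd17b13* at 218 were near *Plin2* at 206. The median SD on log2 over the 22 genes that averaged 10 CPM or more was 0.13, beside 0.26 for the members, and 1 of the 22, *Lss*, was among the most variable 5% of genes. Replicate 4 was the lowest liver and replicate 3 the highest for 9 of the 22 each, beside 32.6% and 15.7% of all genes that averaged 10 CPM or more. The remaining perilipins were lower than *Plin2*: *Plin3*, found in most tissues, was at 10.1 CPM per kb, and *Plin1*, the perilipin of adipocytes, at 0.053 CPM per kb. *Lss*, a gene of sterol synthesis, *Plin3* and *Plin1* were named after their values were seen.

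Of 25 other neutral lipid hydrolase genes, 23 averaged 1 CPM or more, with a median level of 33.4 CPM per kb, close to the 33.0 of *Pnpla2*. The genes with the highest CPM were *Ces1c*, a secreted carboxylesterase gene, at 1156 ± 124 CPM, *Ces1d*, a triacylglycerol hydrolase gene of hepatocytes, at 997 ± 59.4 CPM, and *Ces1f* at 459 ± 30.5 CPM (SD, n = 5 each). Carboxylesterase genes are close relatives of each other, and only uniquely aligned reads were counted, so their levels are uncertain. Replicate 4 was the lowest liver for 7 of the 23 and replicate 3 for 8, beside 32.6% and 22.7% of all genes that averaged 10 CPM or more. Replicate 5 was the highest for 9 and replicate 3 for 7, beside 18.8% and 15.7% of all such genes. The median SD on log2 was 0.18, and 4 of the 23 were among the most variable 5% of genes: *Pnpla3*, *Lpl*, *Ces3a* and *Ces3b*, named after their values were seen. *Pnpla3*, a droplet-bound relative of *Pnpla2*, was at 8.31, 13.0, 24.4, 2.005 and 8.75 CPM, with an SD of 1.13 on log2 beside 0.035 for *Pnpla2*. Its lowest liver was replicate 4 and its highest replicate 3, as for *Cidec*, *Plin4*, *Fitm2* and *Pnpla2* itself. The order of the livers is uncertain for *Pnpla2*, whose highest liver was 1.06 times its lowest, a spread close to counting error. *Ces3a* and *Ces3b*, liver carboxylesterase genes, were instead lowest in replicate 3 and highest in replicate 5.

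Of the nuclear receptors, *Pparg*, the gene of PPARγ, was at 26.6, 31.1, 34.4, 29.9 and 30.7 CPM, a mean of 30.5 ± 2.78 CPM (SD, n = 5). *Ppara*, the gene of PPARα, was at 113, 94.1, 109.98, 94.5 and 92.5 CPM, a mean of 100.9 ± 9.91 CPM (SD, n = 5). On CPM, *Pparg* was highest in replicate 3, as were 6 of the 10 members, and lowest in replicate 1, as was *Plin2* alone among them. Of all genes that averaged 10 CPM or more, replicate 3 was the highest liver for 15.7% and replicate 1 the lowest for 12.6%. *Ppara* was highest in replicate 1, as were *Plin5* and *Fitm1*, and lowest in replicate 5, as was no member. Of the same genes, replicate 1 was the highest liver for 40.4% and replicate 5 the lowest for 11.3%. These places were read on CPM only and may change with the scaling, as the TMM factor relative to CPM was 1.05 for replicate 1. A link between receptor and member levels was not tested. The SD on log2 of both receptors, 0.13 and 0.14, was well under that of *Cidec* and *Cidea*.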

How the data were processed

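RNA-seq libraries of 5 AAV8-Control livers of *db/db* mice were analysed. Per the labels, poly-A RNA was primed with random hexamers, with no step that marks strand, and read as single reads of 50 bases. The authors aligned the reads with STAR 2.0.4b to the mouse genome of Ensembl release 76 (GRCm38) and counted uniquely aligned, unambiguous reads on genes with featureCounts 1.4.5. The authors deposited CPM values, scaled to all reads on genes, for protein-coding genes. Each line repeated for a gene was identical (110 of 15236 lines) and was used once. When values were divided by what 1 read was worth in their library, 100% were whole within 0.05 read. The other group of the series, and the comparison that the study's design makes with it, are not reported here.

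Levels between genes were compared as CPM per kb of merged exons, and the spread as the SD of log2(CPM + 1), with no test between groups. The computations were tested on simulated counts. Alternatives were TMM scaling (edgeR 4.0.16) and DESeq2 1.42.0 size factors in R 4.3.3, a pseudocount of 0.1 CPM and each library left out in turn; except for the ratio of *G0s2* to *Pnpla2*, these were chosen after seeing the data. SDs measure the spread between these 5 livers.

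Positions, exon lengths and overlaps came from GENCODE M21 (GRCm38), and promoters from RefSeq (GRCm38.p6). No window was found for *Cidea*. The members and lists were chosen with earlier results of these data known. The genes named are the members, *Pparg* and *Ppara*, the 3 genes of each list with the highest mean CPM, defining markers, and others where stated. The muscle markers *Ckm*, *Myh1*, *Tnnt3* and *Mb* were not analysed here. The libraries differed by far more than sampling noise (chi-square per degree of freedom of 16.8 or more).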

Additional observations from a re-analysis of the deposited data

Results flagged for a closer look

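Of 11 sets of 5 values checked for a liver far from the others, 1 stood out. Chance gives about 1 in 20 for each set, so 1 among 11 is not unusual. The log2 ratio of *G0s2* to *Pnpla2* on CPM + 1 in AAV8-Control replicate 2 was -0.11, with the other 4 livers at 0.31 to 0.48, and the gap was 0.724 of the whole range against a critical value of 0.71.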

How the results depend on the processing

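The mean log2 ratio of *G0s2* to *Pnpla2* on CPM + 1 ranged from 0.23 to 0.37 with a liver left out. With a liver left out, *Plin2* ranged from 190.5 to 216 CPM per kb, *Cidea* from 35.2 to 50.03 and *Cidec* from 26.4 to 34.3. Of 80 alternatives for the SD of a member, 5 moved it by more than 1.5 times. These were *Cidea* (0.68), *Cidec* (0.44), *Plin5* (0.18) and *Fitm1* (0.088) without replicate 4, and *G0s2* (0.11) without replicate 2. Scaling and the pseudocount moved none by that much. Between 4 and 5 members were among the most variable 5% of genes with a liver left out (5 without replicate 5), and 4 under either other scaling. Alternatives for comparisons between groups were not run, since none is reported.

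No paired analysis was possible because a single group is described and no result comes from a test between groups. Counting error was well under the spread between livers for *Plin2*, *Cidea* and *Cidec*, but close to it for *Pnpla2*, so its SD is limited by depth.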
